A study of Mus musculus with 7 samples.

Results

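Sterol genes were followed in 6 samples of amygdala cells from mice that carried Cas9 and a guide RNA in astrocytes. The 35 genes, of 35976 in the count table, were taken by name: 18 enzymes of cholesterol synthesis and 17 genes that control, carry, export, store or hydroxylate sterols. All 35 were found in the table and all 35 passed the filter on low counts. Male C57BL/6J mice received adeno-associated virus in the amygdala with Cas9 under the astrocyte promoter GfaABC1D and a guide against the growth factor receptor gene Egfr (sgEgfr, 3 libraries), or against the Rosa26 locus, the control guide (sgRosa, 4 libraries). Both groups alike carried Cas9, were left for more than 2 weeks, and then went through tube restraint (7 days), fear conditioning (1 day) and its extinction (3 days); no unstressed group was analysed here. Cells were enriched with magnetic beads against the astrocyte antigen ACSA-2, and libraries were made from 5 ng of RNA.

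Cholesterol is made in the brain itself, since plasma lipoproteins do not cross the blood-brain barrier. Acetyl-CoA is built up through mevalonate and farnesyl diphosphate to squalene, which is closed to lanosterol and trimmed to cholesterol. SREBP transcription factors, held in the endoplasmic reticulum with SCAP by INSIG proteins while sterols are plentiful, switch these enzymes on together when sterols fall, and LXR receptors, activated by oxysterols, switch on export. Oligodendrocytes make cholesterol for myelin, and astrocytes pass it to neurons on apolipoprotein E particles, loaded through ABCA1 and ABCG1.

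The sequences before the start sites were searched for motifs that SREBP proteins, their partners NF-Y and Sp1, and LXR are known to bind. The RefSeq table (GRCm38.p6) held 40 start sites for 29 of the 35 genes. Only exact matches were counted, in the 250 bases before each start and on both strands. TCACNCCAC (a form of the sterol regulatory element) was found for 1 of 15 synthesis enzymes, against 1.22% of all 27025 genes. CCAAT, the box of NF-Y, was found for 14 of 15 synthesis enzymes and 8 of 14 other members, against 37.5% of all genes. GGGCGG, a box of Sp1, was found for 14 of 15 and 10 of 14, against 35.4% of all genes. All genes here means every gene of the RefSeq table, detected in these samples or not, with no matching for base content. Whether these shares are particular to sterol genes was therefore not tested. Counted over start sites, 5.56% of the 18 windows of synthesis enzymes held the sterol element, 77.8% CCAAT and 83.3% GGGCGG, against 1.05%, 33.8% and 32.7% of all 32851 windows. The LXR element, an exact direct repeat of AGGTCA with 4 bases between, was found for 0 of the 29 genes and 0.0148% of all genes. Sites that differ from the searched letters were not sought, so these counts do not show that a gene lacks an element. Capitals below mark the first 3 motifs on either strand (reverse complements GTGGNGTGA, ATTGG and CCGCCC), which did not overlap each other in these windows; the Apoe window held none of them. Hmgcs1 (chr13:119690101-119690350, plus strand) is the enzyme whose window held the sterol element, which starts 137 bases before the start site. Sc5d (chr9:42264301-42264550, minus strand) is the enzyme with the highest mean level among those without it. Ebp (chrX:8193513-8193762, minus strand) was added after its values were seen, for the way it moved with myelin markers. Abca1 (chr4:53159896-53160145, minus strand) and Apoe (chr7:19699189-19699438, minus strand, the farthest upstream of 3 listed starts) stand for export.
Hmgcs1: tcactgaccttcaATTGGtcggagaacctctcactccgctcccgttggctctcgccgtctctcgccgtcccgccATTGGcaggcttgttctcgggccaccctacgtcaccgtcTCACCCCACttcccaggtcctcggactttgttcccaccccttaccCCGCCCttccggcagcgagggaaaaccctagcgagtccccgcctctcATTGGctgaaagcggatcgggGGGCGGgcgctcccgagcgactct
Sc5d: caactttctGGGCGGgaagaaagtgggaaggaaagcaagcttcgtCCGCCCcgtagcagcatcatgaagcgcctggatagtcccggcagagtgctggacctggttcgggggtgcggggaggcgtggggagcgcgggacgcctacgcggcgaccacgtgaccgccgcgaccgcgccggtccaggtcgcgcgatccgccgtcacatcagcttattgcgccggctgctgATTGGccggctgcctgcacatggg
Ebp: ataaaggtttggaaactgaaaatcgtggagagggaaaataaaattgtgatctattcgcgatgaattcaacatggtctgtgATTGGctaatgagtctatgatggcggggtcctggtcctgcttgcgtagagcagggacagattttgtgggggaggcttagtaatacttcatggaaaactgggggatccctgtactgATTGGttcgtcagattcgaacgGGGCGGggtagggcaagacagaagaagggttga
Abca1: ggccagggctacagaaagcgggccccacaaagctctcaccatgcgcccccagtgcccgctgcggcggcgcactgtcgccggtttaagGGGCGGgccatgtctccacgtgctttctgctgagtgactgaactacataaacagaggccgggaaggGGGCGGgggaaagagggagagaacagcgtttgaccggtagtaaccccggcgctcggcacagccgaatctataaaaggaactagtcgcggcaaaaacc
Apoe: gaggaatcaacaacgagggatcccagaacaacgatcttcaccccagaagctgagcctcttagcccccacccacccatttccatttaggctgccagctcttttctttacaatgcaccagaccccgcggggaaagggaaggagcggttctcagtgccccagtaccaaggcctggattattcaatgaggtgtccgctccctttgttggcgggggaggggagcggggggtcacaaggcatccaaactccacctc

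The libraries held 5852870 to 22579222 counts. Counts of sgRosa 3 and 4 agree nearly within sampling noise (chi-square per degree of freedom 1.04, against 14.8 to 158 for the 20 other pairs). Their counts were summed to 1 sample, sgRosa 3+4, which left 3 samples a guide, and 3 counts stand for 0.133 to 0.211 CPM in these 6 samples. Since no label ties a library to its own animal, the p-values measure the spread between these samples. Egfr had 55 to 188 counts in every library and a log2 fold change of -0.13 (SE 0.54, edgeR adjusted p = 0.997), with 2.87 to 13.3 CPM in sgRosa and 5.69 to 10.7 CPM in sgEgfr. All 19 astrocyte markers were detected in all samples and took 0.713% to 1.77% of counts in sgRosa and 1.07% to 1.48% in sgEgfr. The 19 markers of myelinating oligodendrocytes took 8.81% to 13.4% and 9.57% to 16.3%. Sterol transcripts of oligodendrocytes, in which the GfaABC1D promoter is not meant to act, are thus counted with those of astrocytes, and in bulk samples fewer cells of a type and less RNA per cell cannot be told apart.

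Apoe stood far above all other sterol genes in level per length. CPM, the TMM-scaled count relative to the library total, was divided by the exon length of each gene in kilobases (GENCODE M21, GRCm38) to compare genes. Apoe (2138 exonic bases, chr7:19696109-19699188) was at 2465 ± 945 CPM per kb over the 6 samples (SD), and its lowest sample lay above the highest of every other member. Hmgcs1, which condenses acetyl-CoA and acetoacetyl-CoA to HMG-CoA, followed at 101 ± 22.7, and the exporter Abcg1 at 90.6 ± 24.9. The lysosomal sterol carrier Npc2 was at 57.8 ± 5.42, the SREBP anchor Insig1 at 57.5 ± 14.2 and the desaturase Sc5d at 51.4 ± 4.99 CPM per kb. The lowest were Idi1, which isomerises isopentenyl diphosphate, at 2.87 ± 0.702, the ubiquitin ligase Mylip at 2.76 ± 0.525, the LXR gene Nr1h3 at 2.62 ± 0.873 and the sterol reductase Tm7sf2 at 1.76 ± 0.594 CPM per kb. Only 3 of the 34 neighbouring pairs in this order did not overlap in their 6 values: Apoe and Hmgcs1, Abcg1 and Npc2, and Sc5d and Msmo1. The other neighbours overlapped in these pooled values, so the exact rank of close genes is not resolved by this count. It covers neighbours only, and genes were not compared within each sample. Within pairs of related genes, Abcg1 stood above Abca1 (5.60 ± 0.380 CPM per kb), Insig1 above Insig2 (11.9 ± 1.04) and Nr1h2 (32.1 ± 3.23) above Nr1h3. Exons of other annotated genes cover at least 10% of the exonic bases of 5 members, Fdps (26.7%), Fdft1 (18.3%, by Ctsb), Scap (13.2%), Hmgcs1 (12.1%) and Tm7sf2 (12.1%, by Vps51). The counts of these 5 are uncertain by an amount that was not measured.

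**Figure D1:**
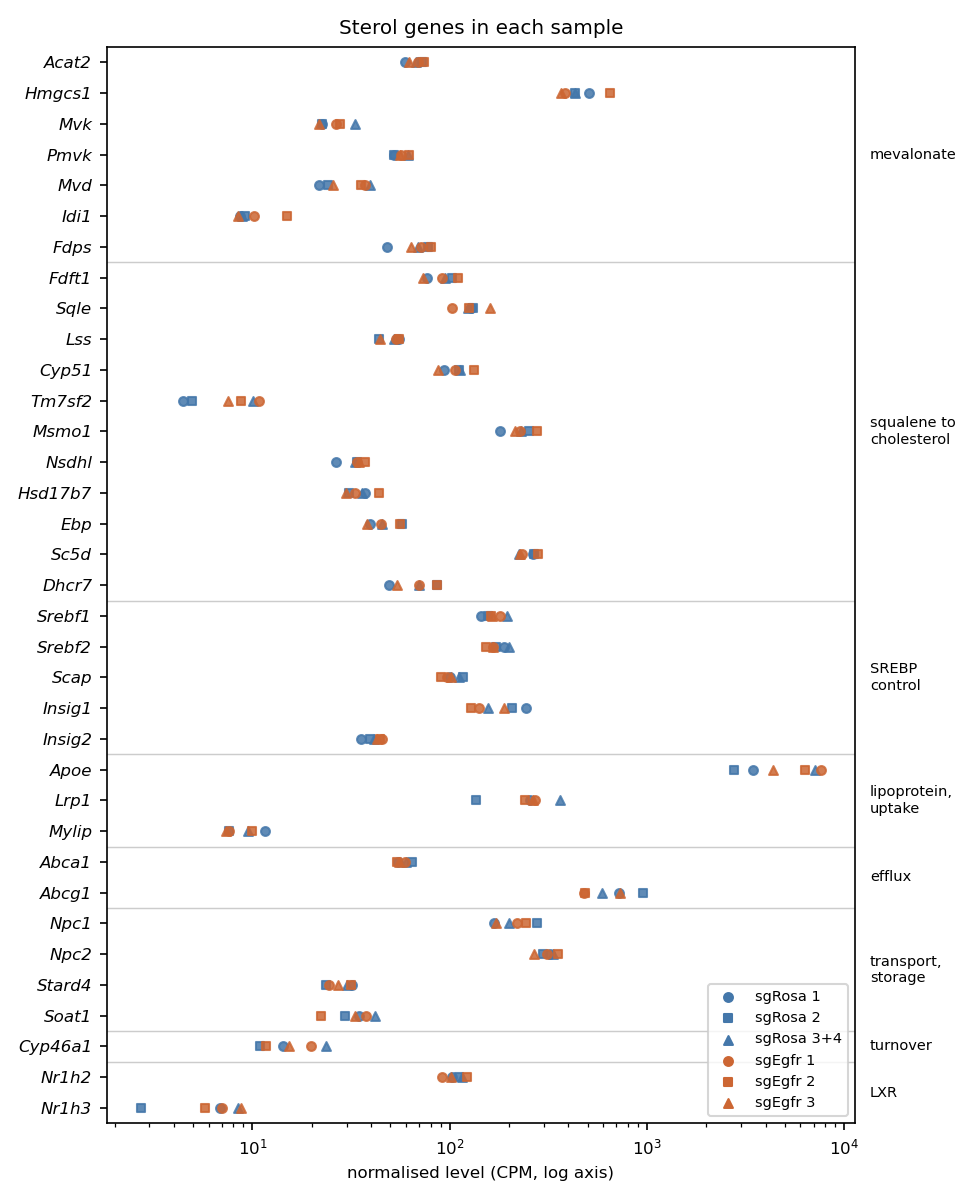
Normalised level (CPM, log axis) of the 35 sterol genes in each of the 6 samples, grouped by role; blue marks are sgRosa and orange marks sgEgfr samples. CPM is not divided by length here, so the plot compares samples within a gene; Apoe ran from 2762 to 7627 CPM, while the 6 values of Abca1 lay between 54.4 and 64.1 CPM.

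No sterol gene was called between the guides. With edgeR's quasi-likelihood test over 14936 genes and an adjusted p under 0.05, 0 of 35 members were called, beside 0.0% of all genes, and the adjusted p of the members lay between 0.997 and 0.998. At an unadjusted p under 0.05 there were 0 of 35 members, beside 2.68% of all genes (401), 1.31% higher and 1.37% lower in sgEgfr. DESeq2 and limma-voom likewise called 0 members, with 0 at an unadjusted p under 0.05. Log2 fold changes of the members ran from -0.42 (Abcg1) to 0.48 (Tm7sf2). In 3 of 35 members the CPM values of the groups did not overlap, beside 7.61% of all genes, so this share is near the background: 2 were higher in sgEgfr, beside 3.76%, and 1 lower, beside 3.85%. The 18 synthesis enzymes had a median log2 fold change of 0.040 and the 17 other members one of -0.052, beside 0.020 over all genes. Of the synthesis enzymes 15 and of the other members 5 had values above 0, beside 52.9% of all genes. With library totals as the only scaling, 7 of 18 enzymes were above 0, beside 47.4% of all genes. The median was then -0.010 for the enzymes, beside -0.018 over all genes. Without sgEgfr 2 also 7 were above 0, beside 49.7% of all genes. Without sgEgfr 3, Insig1 and Abcg1 had an unadjusted p under 0.05 (log2 fold changes of -0.59 and -0.65), beside 4.5% of all genes there. Without sgRosa 3 and 4, an alternative chosen once values were known, Tm7sf2 (0.94), Insig1 (-0.56) and Apoe (0.97) had one, beside 6.21% of all genes. Neither setting gave a call.

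**Figure D2:**
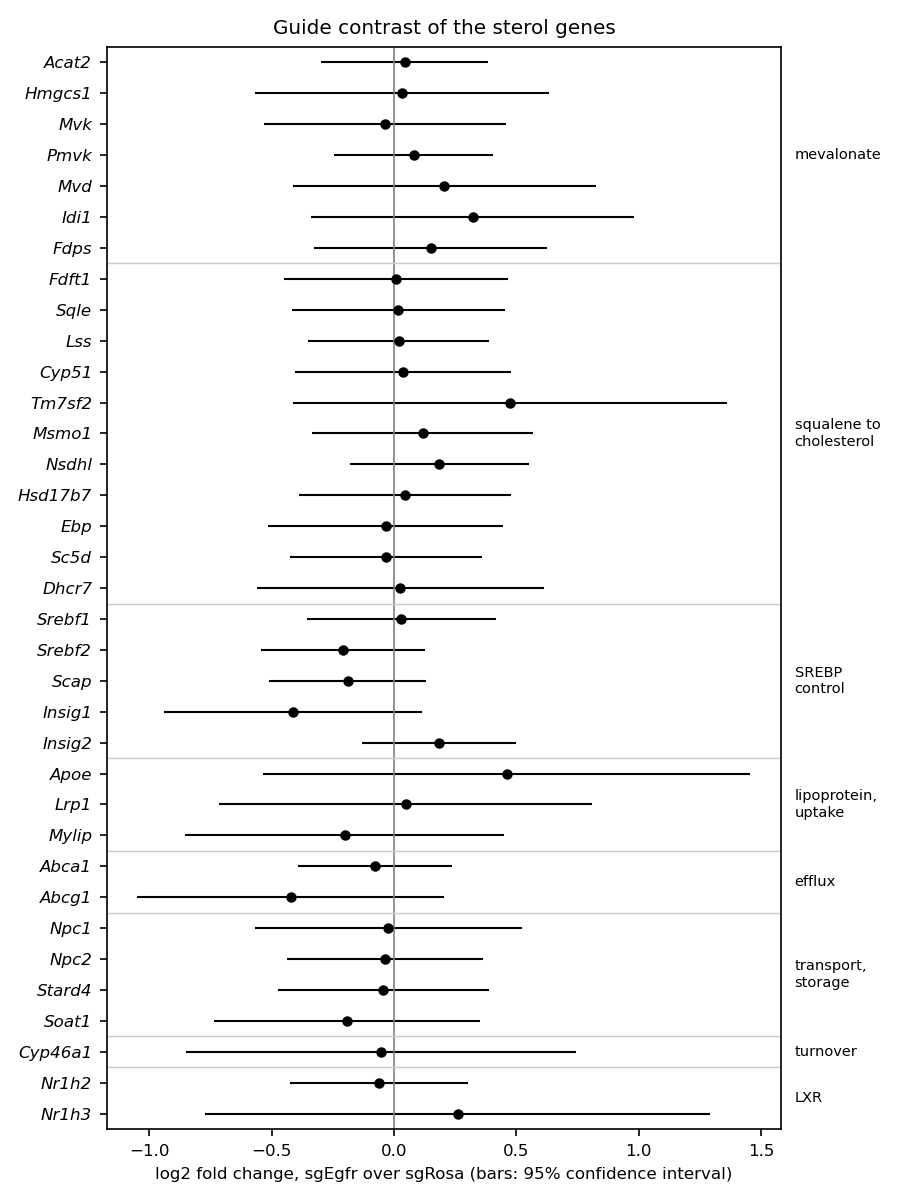
Log2 fold change of sgEgfr over sgRosa for the 35 sterol genes with 95% confidence intervals derived from the edgeR test statistic (3 samples a guide), grouped by role. All 35 intervals include 0; the estimates farthest from 0 are those of Tm7sf2 (0.48) and Apoe (0.46) above 0 and Abcg1 (-0.42) and Insig1 (-0.41) below.

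Enzymes from acetyl-CoA to farnesyl diphosphate had no call, with 6 of 7 log2 fold changes above 0, beside 52.9% of all genes. Such counts depended on the scaling, since with library totals only 7 of all 18 synthesis enzymes were above 0, beside 47.4% of all genes. Hmgcs1 was at 508, 432 and 431 CPM across sgRosa 1, 2 and 3+4, against 384, 650.3 and 369 CPM across sgEgfr 1, 2 and 3. Its highest sample, sgEgfr 2, and its lowest, sgEgfr 3, were both sgEgfr samples, and the log2 fold change was 0.033 (SE 0.26, with a 95% confidence interval from -0.57 to 0.63). Idi1 was at 8.68, 9.20 and 8.90 CPM across sgRosa 1, 2 and 3+4, against 10.1, 14.9 and 8.44 CPM across sgEgfr 1, 2 and 3. The 3 sgRosa values lay within those of sgEgfr, where sgEgfr 2 stood apart, and the log2 fold change was 0.32 (SE 0.28, with a 95% confidence interval from -0.34 to 0.98). Mvd, which decarboxylates mevalonate diphosphate, was at 21.8, 24.0 and 39.3 CPM across sgRosa 1, 2 and 3+4, against 37.1, 35.6 and 25.6 CPM across sgEgfr 1, 2 and 3. The groups overlapped, with a log2 fold change of 0.21 (SE 0.27), and sgRosa 1 and 2 and sgEgfr 3 were the low samples. Acat2, the cytosolic thiolase at the head of the pathway, and Pmvk, which phosphorylates phosphomevalonate, had narrow intervals around 0, at 0.043 (SE 0.15, with a 95% confidence interval from -0.30 to 0.38) and 0.080 (SE 0.14, with a 95% confidence interval from -0.24 to 0.40). The mevalonate kinase gene Mvk had -0.036 (SE 0.21) and the farnesyl diphosphate synthase gene Fdps 0.15 (SE 0.20). In CPM, Acat2 ran from 59.5 to 74.0, Pmvk from 52.0 to 62.4, Mvk from 21.7 to 32.9 and Fdps from 48.2 to 80.9 over the 6 samples.

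Enzymes from squalene to cholesterol had no call, with 9 of 11 log2 fold changes above 0, beside 52.9% of all genes. This count too depended on the scaling. Fdft1, the squalene synthase, was at 76.7, 103 and 94.2 CPM across sgRosa 1, 2 and 3+4, against 91.8, 111 and 73.3 CPM across sgEgfr 1, 2 and 3, and Sqle, the epoxidase of squalene, at 129, 131 and 124 CPM across sgRosa 1, 2 and 3+4, against 103, 125 and 161 CPM across sgEgfr 1, 2 and 3. Both overlapped fully between the guides, with log2 fold changes of 0.0087 (SE 0.20) and 0.018 (SE 0.19). Sqle was highest in sgEgfr 3, the sample in which Hmgcs1 and Fdft1 were lowest. Nsdhl, a dehydrogenase that helps remove the methyl groups of lanosterol, was at 26.4, 33.9 and 32.9 CPM across sgRosa 1, 2 and 3+4, against 34.1, 37.2 and 34.8 CPM across sgEgfr 1, 2 and 3. Each sgEgfr value lay above each sgRosa value, by 33.9 against 34.1 CPM at the nearest, and the log2 fold change was 0.19 (SE 0.16, with a 95% confidence interval from -0.18 to 0.55). Tm7sf2 was at 4.45, 4.96 and 10.05 CPM across sgRosa 1, 2 and 3+4, against 10.8, 8.77 and 7.52 CPM across sgEgfr 1, 2 and 3. sgRosa 1 and 2 were low and sgRosa 3+4 lay among the sgEgfr samples, with a log2 fold change of 0.48 (SE 0.38, with a 95% confidence interval from -0.41 to 1.36). Ebp, the sterol isomerase, was at 39.6, 57.4 and 45.4 CPM across sgRosa 1, 2 and 3+4, against 44.8, 56.2 and 38.2 CPM across sgEgfr 1, 2 and 3. It was high in sgRosa 2 and sgEgfr 2, close to each other, and its log2 fold change was -0.033 (SE 0.21). The other enzymes of this stretch were Lss, which closes the ring, with 0.019 (SE 0.16), the demethylase Cyp51 with 0.037 (SE 0.19), the methyl oxidase Msmo1 with 0.12 (SE 0.19), Hsd17b7 with 0.045 (SE 0.19), Sc5d with -0.033 (SE 0.17) and the reductase Dhcr7 with 0.026 (SE 0.25). Their CPM ran from 44.0 to 55.6, 87.0 to 132, 179 to 278, 29.9 to 43.8, 226 to 282 and 49.3 to 86.4.

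Among the genes that control SREBP, none passed the test, and 2 of 5 log2 fold changes were above 0. Groups did not overlap for Srebf2 and Insig2, which are 2 of the 3 such members, a share over all 35 near the 7.61% of all genes. Srebf2 (chr15:82147181-82205379), which encodes the SREBP that drives sterol synthesis, was at 188, 171 and 200.2 CPM across sgRosa 1, 2 and 3+4, against 165, 153 and 166 CPM across sgEgfr 1, 2 and 3. Each sgEgfr value lay below each sgRosa value, with a log2 fold change of -0.21 (SE 0.14, with a 95% confidence interval from -0.54 to 0.13). Insig2, which retains SCAP in the endoplasmic reticulum, was at 35.4, 39.3 and 41.5 CPM across sgRosa 1, 2 and 3+4, against 45.2, 44.2 and 42.6 CPM across sgEgfr 1, 2 and 3. Here each sgEgfr value lay above each sgRosa value, and the log2 fold change was 0.18 (SE 0.14, with a 95% confidence interval from -0.13 to 0.50). Insig1 (chr5:28071363-28078662), the INSIG gene that SREBP itself switches on, was at 245, 207 and 157 CPM across sgRosa 1, 2 and 3+4, against 141, 129 and 188 CPM across sgEgfr 1, 2 and 3. The groups overlapped through sgRosa 3+4 and sgEgfr 3, and the log2 fold change was -0.41 (SE 0.23, with a 95% confidence interval from -0.94 to 0.11). Srebf1, whose products act mainly on fatty acid genes, was at 144, 157 and 194 CPM across sgRosa 1, 2 and 3+4, against 181, 163 and 163 CPM across sgEgfr 1, 2 and 3. The sgEgfr values lay inside the sgRosa range, at a log2 fold change of 0.030 (SE 0.17). Scap, the escort of SREBP, was at 90.2 to 117 CPM with -0.19 (SE 0.14), and its groups overlapped.

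Genes of lipoproteins, uptake and export had no call, with 2 of 5 log2 fold changes above 0. Apoe was at 3454, 2762 and 7089 CPM across sgRosa 1, 2 and 3+4, against 7627, 6331 and 4353 CPM across sgEgfr 1, 2 and 3. sgRosa 1 and 2 and sgEgfr 3 were low and the other 3 samples high, and the log2 fold change was 0.46 (SE 0.43, with a 95% confidence interval from -0.54 to 1.46). Lrp1, a receptor for apolipoprotein E, was at 255, 135 and 362 CPM across sgRosa 1, 2 and 3+4, against 271, 241 and 266 CPM across sgEgfr 1, 2 and 3. Its lowest and its highest sample were both sgRosa samples, 2 and 3+4, and its log2 fold change was 0.048 (SE 0.33, with a 95% confidence interval from -0.71 to 0.81). Mylip, an LXR target that sends lipoprotein receptors to degradation, was at 11.6, 7.58 and 9.47 CPM across sgRosa 1, 2 and 3+4, against 7.61, 9.95 and 7.35 CPM across sgEgfr 1, 2 and 3, with -0.20 (SE 0.28) and overlapping groups. Abca1, which loads lipid onto apolipoproteins, was at 54.4, 64.1 and 60.2 CPM across sgRosa 1, 2 and 3+4, against 59.6, 54.4 and 55.3 CPM across sgEgfr 1, 2 and 3. All 6 values lay close together, and the log2 fold change was -0.078 (SE 0.13, with a 95% confidence interval from -0.39 to 0.24). Abcg1, which passes sterol to lipidated particles, was at 720.1, 957 and 594 CPM across sgRosa 1, 2 and 3+4, against 478, 484 and 733 CPM across sgEgfr 1, 2 and 3. sgEgfr 1 and 2 were the lowest samples, but sgEgfr 3 lay above sgRosa 1 and 3+4, and the log2 fold change was -0.42 (SE 0.27, with a 95% confidence interval from -1.05 to 0.20).

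Genes of transport within the cell, storage, turnover and the LXR receptors had no call. Npc1, which moves cholesterol out of lysosomes, was at 167, 276 and 199.6 CPM across sgRosa 1, 2 and 3+4, against 219, 244 and 171 CPM across sgEgfr 1, 2 and 3. The sgEgfr values lay inside the sgRosa range, at a log2 fold change of -0.023 (SE 0.23). Stard4, a cytosolic sterol carrier, was at 32.1, 23.6 and 30.1 CPM across sgRosa 1, 2 and 3+4, against 24.4, 31.6 and 27.2 CPM across sgEgfr 1, 2 and 3, and Soat1, which esterifies cholesterol for storage, at 34.8, 29.6 and 41.9 CPM across sgRosa 1, 2 and 3+4, against 37.7, 22.3 and 33.1 CPM across sgEgfr 1, 2 and 3. Both overlapped between the guides, with -0.043 (SE 0.19) and -0.19 (SE 0.23), and Soat1 was lowest in sgEgfr 2. Npc2 had -0.038 (SE 0.17) at 269 to 353 CPM. Cyp46a1, the neuronal hydroxylase through which the brain disposes of cholesterol, was at 14.3, 10.9 and 23.7 CPM across sgRosa 1, 2 and 3+4, against 19.9, 11.8 and 15.4 CPM across sgEgfr 1, 2 and 3. It was highest in sgRosa 3+4 and sgEgfr 1 and low in sample 2 of both guides, with a log2 fold change of -0.052 (SE 0.34, with a 95% confidence interval from -0.85 to 0.74). Nr1h2, which encodes LXR beta, was at 103, 111 and 115 CPM across sgRosa 1, 2 and 3+4, against 91.8, 122 and 102 CPM across sgEgfr 1, 2 and 3, and Nr1h3, which encodes LXR alpha, at 6.85, 2.72 and 8.46 CPM across sgRosa 1, 2 and 3+4, against 7.04, 5.76 and 8.74 CPM across sgEgfr 1, 2 and 3. Their log2 fold changes were -0.061 (SE 0.16) and 0.26 (SE 0.44), with overlap in both, and Nr1h3 was lowest in sgRosa 2.

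Synthesis and export were set side by side in each sample. The summed level of the 18 synthesis enzymes was 1677, 1814 and 1743 CPM in sgRosa 1, 2 and 3+4 and 1663, 2160.5 and 1578 CPM in sgEgfr 1 to 3, or 1745 ± 68.5 and 1801 ± 315 CPM (SD, n = 3). The sgRosa samples lay inside the sgEgfr range. The sum of Abca1 and Abcg1 was 775, 1021 and 654 CPM in sgRosa and 537, 539 and 789 CPM in sgEgfr. Synthesis per export on this CPM scale was 2.17, 1.78 and 2.66 in sgRosa and 3.10, 4.01 and 2.00 in sgEgfr. sgEgfr 1 and 2 were the highest of the 6 and sgEgfr 3 lay below sgRosa 1, so the groups overlapped, and no test was made on these sums. Abcg1 made up most of the export sum, at 8.01 to 14.9 times the CPM of Abca1. This ratio was lowest in sgEgfr 1, sgEgfr 2 and sgRosa 3+4, the 3 samples with the highest Apoe.

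**Figure D3:**
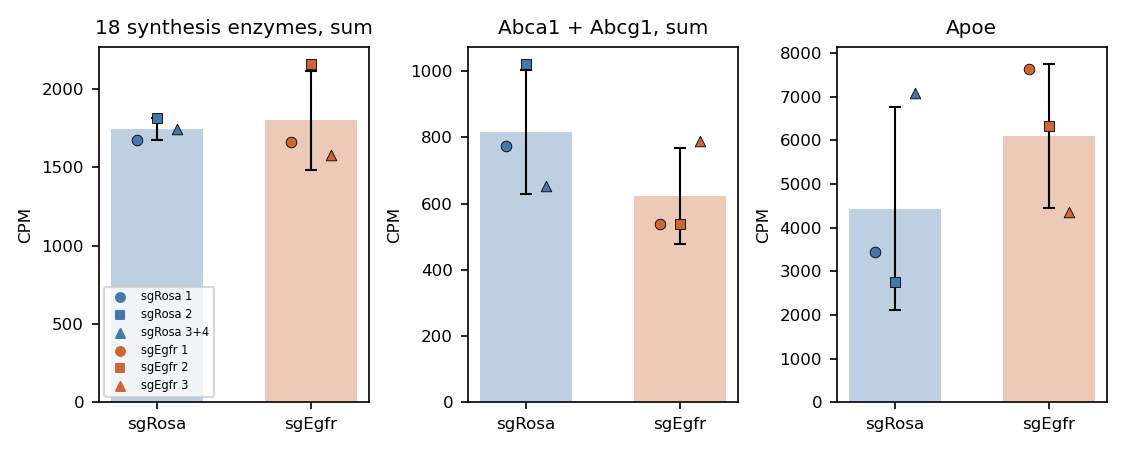
Summed CPM of the 18 synthesis enzymes (left), summed CPM of Abca1 and Abcg1 (middle) and CPM of Apoe (right) in sgRosa (blue) and sgEgfr (orange); bars are means, whiskers SD (n = 3) and marks the samples. The guides overlap in all 3 panels, with means of 1745 and 1801 CPM for synthesis, 817 and 621 CPM for export and 4435 and 6104 CPM for Apoe.

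Levels of the synthesis enzymes differed between samples of the same guide. sgEgfr 2 held the highest value of 12 of the 18 enzymes, sgRosa 1 the lowest of 8 and sgEgfr 3 the lowest of 7. Their mean log2 CPM, relative to the mean of the 6 samples, was -0.20, -0.0082 and 0.067 in sgRosa 1, 2 and 3+4 and 0.029, 0.25 and -0.14 in sgEgfr 1, 2 and 3. Myelin markers, measured the same way, were at -0.24, 0.45 and -0.14 and at -0.052, 0.39 and -0.40, and astrocyte markers at 0.022, -0.87 and 0.44 and at 0.23, -0.0047 and 0.19. Microglia markers were also highest in sgEgfr 2 (0.93) and lowest in sgRosa 1 (-0.75). So were heat shock genes (0.51 and -0.81), which were listed as a possible sign of handling. The part of microglia markers and heat shock genes in these levels was not tested.

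**Figure D4:**
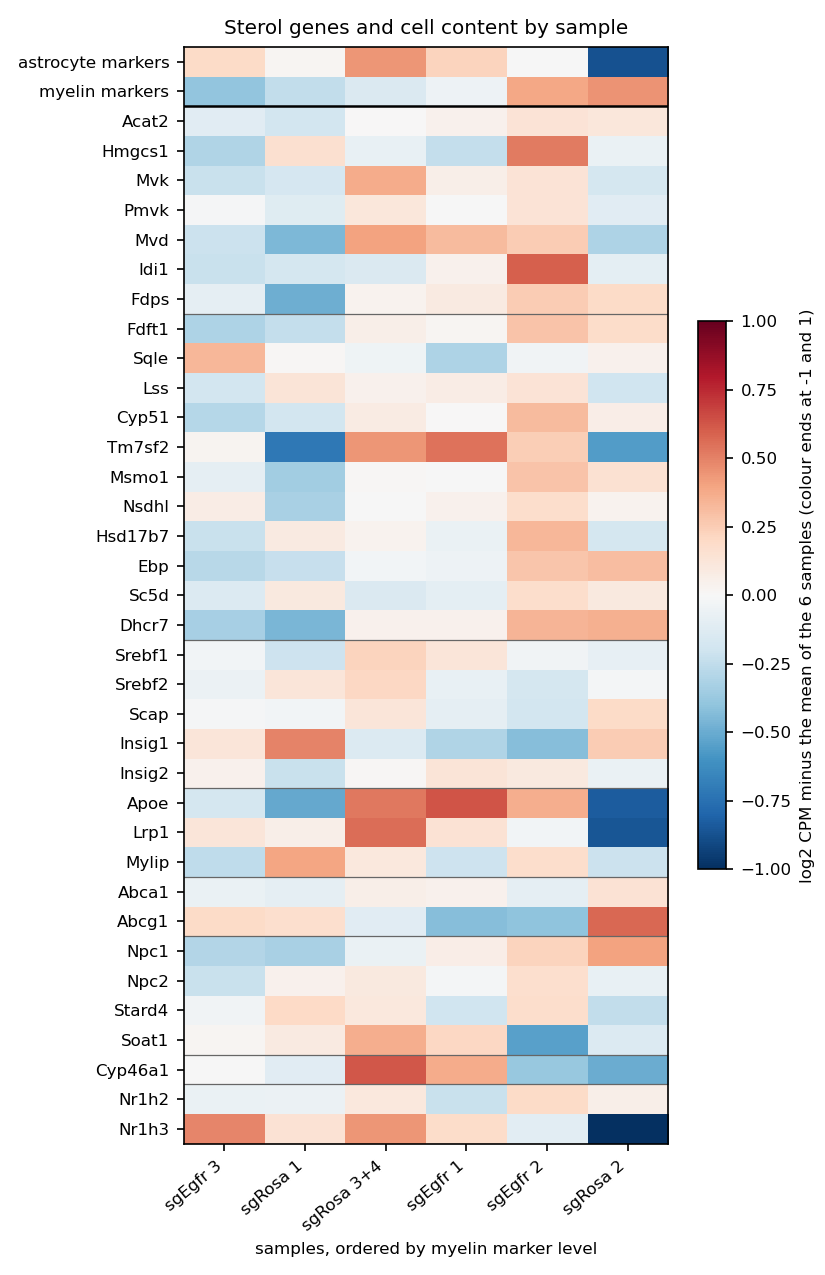
Log2 CPM of the 35 sterol genes minus their mean over the 6 samples (colour, ends at -1 and 1), under the mean of the astrocyte and of the myelin markers; columns are samples ordered by myelin marker level. Many synthesis enzymes run from low (blue) in sgEgfr 3 and sgRosa 1 to high (red) in sgEgfr 2. In sgRosa 2, the column with the highest myelin markers, their mean was lower again (-0.0082, against 0.25 in sgEgfr 2). Lrp1 and Nr1h3 are lowest in sgRosa 2, which is also the sample with the lowest astrocyte markers (-0.87).

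Each gene was then correlated with the 2 marker levels over the 6 samples, with an exact two-sided permutation test and adjustment over all 14936 genes. These points share the guides and the scaling of each library to a fixed total, under which marker shares and other genes trade against each other. No gene passed an adjusted p under 0.05, with 0 of 35 members beside 0.0% of all genes for either marker level. At an unadjusted p under 0.05, 8 of 35 members were correlated with myelin markers, beside 16% of all genes, of which 7 had a positive correlation, beside 7.89% of all genes, and 1 a negative one, beside 8.12%. The 7 were 6 synthesis enzymes (Ebp, Fdft1, Dhcr7, Acat2, Cyp51 and Msmo1) and Npc1. Of the 18 enzymes 15 had r above 0, beside 48.3% of all genes, and their median r was 0.58, beside -0.040 over all genes. Enzymes that move together over the same 6 samples are not separate observations, so this count is a description only. With astrocyte markers 4 of 35 members had a positive correlation, beside 7.1% of all genes (12.4% in either direction), and 0 a negative one, beside 5.31%. Those 4 were Lrp1, Nr1h3, Cyp46a1 and Apoe, and 6 of the 18 enzymes had r above 0, beside 50.6% of all genes, with a median r of -0.12, beside 0.011. The 2 marker levels were themselves related at r = -0.70 (exact permutation p = 0.0917) and Spearman rho = -0.54 (exact p = 0.297), and at r = -0.52 without sgRosa 2 and sgRosa 3+4. With library totals as the only scaling 5 members in place of 8 had an unadjusted p under 0.05 with myelin markers. The share of all genes was not computed there. With values centred within each guide 3 members did, beside 6.66% of all genes: Ebp and Npc1, which are 2 of the 8, and Idi1, which is not. With astrocyte markers 2 did, beside 3.47% of all genes: Lrp1, which is 1 of the 4, and Soat1, which is not.

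Ebp followed the myelin markers most closely (r = 0.99, exact permutation p = 0.00278, adjusted p = 0.210, and Spearman rho = 0.94, exact p = 0.0167, adjusted p = 0.273). Without sgRosa 2 and sgEgfr 2, the 2 samples farthest from the median, r was 0.91 over 4 samples. Npc1 came next (r = 0.95, exact permutation p = 0.00556, adjusted p = 0.210, and rho = 0.94, exact p = 0.0167, adjusted p = 0.273), with 0.87 without those samples. Fdft1 (r = 0.91, exact permutation p = 0.0264, adjusted p = 0.279, and rho = 0.89, exact p = 0.0333, adjusted p = 0.311) and Dhcr7 (r = 0.91, exact permutation p = 0.0292, adjusted p = 0.280, and rho = 0.94, exact p = 0.0167, adjusted p = 0.273) had 0.90 and 0.77 without them. For Acat2, Cyp51 and Msmo1 the r of 0.87, 0.82 and 0.80 was 0.74, 0.88 and 0.39 without them. Over 4 samples with a narrower range of markers r can fall in any case. The lower value of Msmo1 therefore does not settle whether its r rests on those samples. Nr1h3 had the most negative value with myelin markers (r = -0.83, exact permutation p = 0.00833, adjusted p = 0.229), which was -0.50 without them. Among the enzymes, Sqle (-0.31), Tm7sf2 (-0.094) and Lss (-0.020) had an r below 0.

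With astrocyte markers, Lrp1 had the highest correlation (r = 0.99, exact permutation p = 0.00139, adjusted p = 0.291, and rho = 1.00, exact p = 0.00278, adjusted p = 0.419), and r was 0.93 over 4 samples without sgRosa 2 and sgRosa 3+4. Nr1h3 (r = 0.97, exact permutation p = 0.0153, adjusted p = 0.330, and rho = 0.83, exact p = 0.0583, adjusted p = 0.557) had 0.71 without them. Cyp46a1 (r = 0.80, exact permutation p = 0.0264, adjusted p = 0.348, and rho = 1.00, exact p = 0.00278, adjusted p = 0.419) had 0.88 without them. Apoe (r = 0.77, exact permutation p = 0.0278, adjusted p = 0.349, and rho = 0.77, exact p = 0.103, adjusted p = 0.581) had 0.35 without them. For the reason given for Msmo1, this does not settle whether the relation of Apoe rests on those samples. The most negative values were those of Abcg1 (-0.68), Npc1 (-0.66) and Ebp (-0.62), which were -0.023, -0.15 and -0.46 without them. Abca1 had -0.49, and 0.79 without them. As covariates in the guide test, neither marker level led to a call, and the median log2 fold change of the enzymes was 0.068 with the astrocyte and 0.048 with the myelin level.

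**Figure D5:**
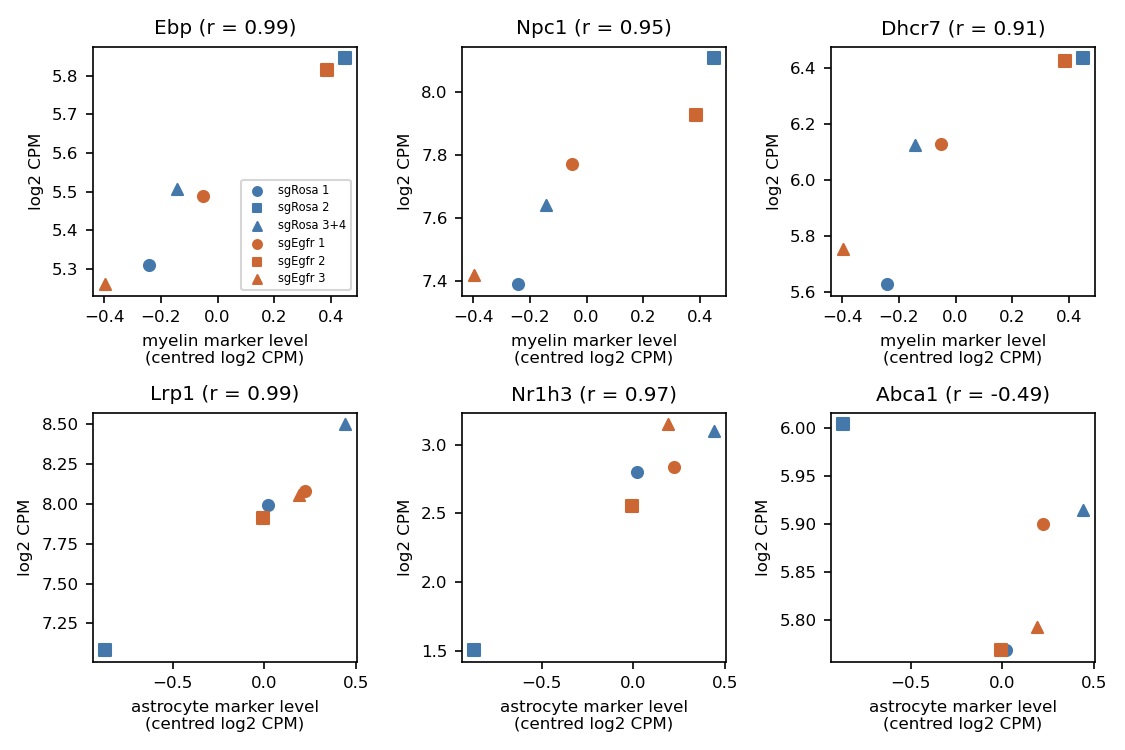
Log2 CPM of 6 sterol genes against the centred mean log2 CPM of myelin markers (top) or astrocyte markers (bottom) in the 6 samples; blue marks are sgRosa and orange marks sgEgfr samples, and each title gives Pearson's r. Ebp, Npc1 and Dhcr7 climb from sgEgfr 3 and sgRosa 1 to sgEgfr 2 and sgRosa 2, and Lrp1 and Nr1h3 are set apart at the low end by sgRosa 2, whereas Abca1 (r = -0.49) is highest there.

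Other genes of sterol and SREBP biology were listed beside the members, and 0 of them were called in either direction. All 12 fatty acid genes that SREBP controls were tested, with 6 above and 6 below 0 and a median log2 fold change of -0.036. The elongase Elovl6 had -0.35 (SE 0.20), the desaturase Fads2 0.49 (SE 0.37) and the ATP citrate lyase Acly 0.24 (SE 0.18). Of 8 further genes of SREBP processing and degradation, 5 were above 0 (median 0.020). Erlin2, which helps degrade INSIG proteins, had 0.21 (SE 0.14). Of 8 listed isoprenoid and sterol enzymes 7 were tested, 4 of them above 0 (median 0.099), and Por, the electron donor of Cyp51, had 0.37 (SE 0.18), Cyb5r3 0.35 (SE 0.24) and Tmem97 0.16 (SE 0.18). Of 20 listed sterol handling and lipoprotein genes 19 were tested, 9 of them above 0 (median -0.0093), with the oxysterol-binding protein gene Osbp at -0.48 (SE 0.25), the lipoprotein receptor gene Vldlr at -0.44 (SE 0.24) and Gramd1b, which carries sterol from the plasma membrane, at -0.24 (SE 0.17). At an unadjusted p under 0.05, 0 genes of these 4 lists were found.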

How the data were processed

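Raw counts per gene were deposited by the authors in 1 series table and in 7 files of single libraries, which held the same values. The submitters' processing notes name, with no role or order, featureCounts 2.0.1, fastp 0.23.2, STAR 2.7.5c and edgeR 3.42.4, and mm10 as the build. Annotation, strand setting and multi-mapping are not given in the sources used here. The floor of 3 counts covers counting error only.

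sgRosa 3 and 4 were summed. Genes were kept with filterByExpr (minimum count 10, total 15), scaled by TMM, and compared between guides by the quasi-likelihood test of edgeR 4.0.16 in R 4.3.3 without covariates, with Benjamini-Hochberg adjustment over 14936 genes. edgeR reports no SE, so each SE was derived as the absolute log2 fold change divided by the square root of the F statistic. Confidence intervals used this SE with the t distribution. Log2 CPM used a prior count of 2, and marker levels are means over a list. Exact correlation tests used all 720 orders of the 6 samples. Lengths are exon unions. Alternatives were other scalings and filters, DESeq2 1.42.0, limma-voom (limma 3.58.1), a replicate block, marker covariates, 7 separate libraries and each library left out. Scripts were tested on simulated data.

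The members and lists were chosen with earlier results of these data known. Values in every sample were given for 23 members: 9 set by name, the 2 with the smallest p per role, those that did not overlap between guides and the 3 highest and lowest r with each marker level. Of each other list, up to 3 genes with the smallest p were named. Some genes that this rule selects are not reported here. Promoters followed a rule that allowed 3 enzymes with the sterol element, of which 1 was found. Figures used matplotlib 3.10.9.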

Additional observations from a re-analysis of the deposited data

How the results depend on the processing

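No member was called under any of the 19 alternatives (lowest adjusted p 0.738), and 0 genes were called in all, with 236 to 960 genes at an unadjusted p under 0.05. The members with an unadjusted p under 0.05 were 0 with all samples and under the other alternatives, 0 to 2 with each library left out (2 without sgEgfr 3, beside 4.5% of all genes), and 3 without sgRosa 3 and 4, beside 6.21% of all genes. The median log2 fold change of the synthesis enzymes was -0.010 to 0.068 with all samples and -0.048 to 0.17 with each library left out. That of the other members was -0.099 to -0.040 and -0.16 to -0.033. All lay within 1 SD of the main value, where SD is that of a list's mean log2 CPM between samples of a guide (0.17 and 0.12). This SD is wider than the main medians of 0.040 and -0.052, so it does not show them to be steady, and the enzyme median changed sign. The number of synthesis enzymes above 0 ran from 7 to 17, beside 47.4% to 54.7% of all genes.

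The replicate numbers matched the samples only in part. Deviations from the group means correlated at -0.11, 0.52 and 0.55 for numbers 1, 2 and 3, with sgRosa 3+4 taken as number 3. sgRosa 2 and sgEgfr 2 correlated best with each other, as did sgRosa 3+4 and sgEgfr 3, but sgRosa 1 and sgEgfr 1 did not. Whether samples of the same number share a source was not tested. The replicate block gave 0 calls, 0 members with an unadjusted p under 0.05, 705 genes so in all against 401, and medians of 0.034 and -0.045.

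Of 437 values of named members under alternatives, 397 kept their direction with no call and 40 had the other direction, in 11 of 23 members. With library totals only these were Hmgcs1 (-0.030), Fdft1 (-0.044), Sqle (-0.022) and Srebf1 (-0.0038). With limma-voom they were Hmgcs1 (-0.0048), Sqle (-0.012), Npc1 (0.0093) and Cyp46a1 (0.013), and with the replicate block Hmgcs1 (-0.015) and Sqle (-0.0053). With 7 separate libraries they were Fdft1 (-0.0083), Srebf1 (-0.028), Lrp1 (-0.10) and Npc1 (0.0025). With the astrocyte covariate they were Ebp (0.071), Srebf1 (-0.018), Lrp1 (-0.13) and Npc1 (0.12), and with the myelin covariate Npc1 (0.026). Without sgRosa 3 and 4 they were Hmgcs1 (-0.0011) and Cyp46a1 (0.32). With each library left out, Hmgcs1 ran from -0.30 to 0.18, Fdft1 from -0.17 to 0.15, Sqle from -0.17 to 0.15, Ebp from -0.21 to 0.12, Srebf1 from -0.058 to 0.054, Lrp1 from -0.25 to 0.080, Npc1 from -0.17 to 0.20, Stard4 from -0.17 to 0.049, Cyp46a1 from -0.28 to 0.097, Nr1h2 from -0.20 to 0.028 and Nr1h3 from -0.094 to 0.38. The cause was not tested.

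Members with an unadjusted p under 0.05 in the correlation with myelin markers were 8, beside 16% of all genes. When centred within each guide they were 3 (2 of them among the 8), beside 6.66% of all genes. With library totals only they were 5, with the log2 share of counts 9 and with Spearman rho 6. For these last settings the share of all genes was not computed, so the counts cannot be read against it. Spearman rho took in Fdps (exact permutation p = 0.0333), which is not among the 8, and left out Cyp51, Msmo1 and Nr1h3. With astrocyte markers the members under this threshold were 4, and 2 when centred within each guide (1 of them among the 4), where 36 permutations allow few small p-values. With Spearman rho they were Lrp1, Cyp46a1, Soat1 (rho = 0.89) and Sc5d (rho = -0.89), the last 2 with an exact permutation p of 0.0333. Nr1h3 and Apoe were not among them, and the share of all genes was not computed for Spearman rho. Leaving out single libraries was not run for the correlations.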

Other observations

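The members differed in how steady they were between samples. The SD of log2 CPM over the 6 samples had a median of 0.22 for the 18 synthesis enzymes and 0.26 for the 17 other members, beside 0.26 over the 9495 genes with a mean log2 CPM of at least 3. Abca1 was the steadiest member (SD 0.097, percentile 4.74 among 2024 genes of like level), followed by Pmvk (0.11), Acat2 (0.12) and Insig2 (0.13). Nr1h3 (0.61), Apoe (0.60), Tm7sf2 (0.52), Lrp1 (0.47) and Cyp46a1 (0.43) varied most. Among genes of like level their percentiles were 77.0, 92.3 (of only 13 genes), 71.8, 85.9 and 77.1.

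A few lipid genes outside the members stood high in sgEgfr 3 and sgRosa 3+4. Pltp, the phospholipid transfer protein, was at 12.8, 11.4 and 64.4 CPM across sgRosa 1, 2 and 3+4, against 30.4, 21.3 and 139.9 CPM across sgEgfr 1, 2 and 3. Gramd1c was at 1.06, 0.679 and 3.43 CPM across sgRosa 1, 2 and 3+4, against 2.16, 0.785 and 9.84 CPM across sgEgfr 1, 2 and 3, and Lrp8, an apolipoprotein E receptor, at 18.5, 7.26 and 24.0 CPM across sgRosa 1, 2 and 3+4, against 13.8, 8.71 and 57.1 CPM across sgEgfr 1, 2 and 3. In all 3 genes sgEgfr 3 was the highest sample and sgRosa 3+4 the next. The 5 ependymal markers took 0.0927% of counts in sgEgfr 3 and 0.0342% in sgRosa 3+4, against 0.00344% to 0.00820% in the other 4 samples, and their part in these values was not tested. These 3 genes were chosen after their values were seen.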
